A study of Homo sapiens with 12 samples.

Results

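Of 10143 protein-coding genes with a mean of at least 100 normalized counts, 32 were moved in opposite directions by an AKT inhibitor and an EZH2 inhibitor in C4.2B prostate cancer cells. These 32 genes were chosen by measured values: the ratio of arm means to DMSO had to be at least 1.4 with one inhibitor and at most 0.71 with the other. In 11 of them, among which the oncogenic transcription factor MYC had the widest gap between agents, AKTi was the agent above DMSO, and in the other 21, led by the tubulin gene TUBA1A, it was EZH2i. When both inhibitors were given together, and with all 12 libraries in the fit, 20 of the 32 genes differed from DMSO in the direction of EZH2i, none did so in the direction of AKTi, and 12 did not differ beyond the threshold in either direction. Such differences were common: of all 16646 genes tested, 38% passed the same threshold above DMSO and 35.2% below it. In some fits with single libraries left out or with other scalings or filters, LPAR3, RAMP1, CYP2J2 or NXF2 was called toward AKTi. The call of CLU toward EZH2i was lost in most alternative fits. In bulk RNA, gene levels are relative to the whole library. Fewer expressing cells and less RNA per cell cannot be told apart in them.

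C4.2B descends from LNCaP prostate cancer cells and grows without androgen, and every arm of the experiment was grown from this 1 line. Cells in 2 of the 4 arms received 1 μM tazemetostat (EZH2i) for 6 days while the others received DMSO, and on day 0 all were moved to medium with 10% charcoal-stripped FBS, which holds little androgen. At that point they received DMSO, 0.25 μM ipatasertib (AKTi), 1 μM tazemetostat or both inhibitors, and polyA RNA was collected 24 hours later. Each arm has 3 libraries from plates seeded in parallel, so that p-values measure the spread between plates of 1 line, and AKTi acted for 24 hours only while EZH2i acted for 6 days longer. Libraries held 14133755 to 22276417 counts on genes. All 9 luminal prostate markers were expressed, with a summed level of 62639 to 65883 normalized counts in DMSO, 96705 to 100389 with AKTi, 108201 to 112280 with EZH2i and 138931 to 143215 in the combination. KLK3 made up the largest share (means 22384 in DMSO and 63415 in the combination), while HOXB13 was at 6925 in DMSO and 4732 in the combination and FOLH1 at 16283 in DMSO and 15018 with EZH2i. The 3 basal markers together stayed between 0 and 5.96 in every library, with KRT5 at 0. Sums over 3 markers each were 22.6 to 44.6 for neuroendocrine, 35.6 to 118 for endothelial (mostly VWF) and 1.08 to 21.9 for leukocyte genes, with CD3E at 0. Summed fibroblast markers, of which COL1A1 made up most, were 71.2 to 112 in DMSO, 68.8 to 104 with AKTi, 246 to 290.5 with EZH2i and 157 to 240.4 in the combination, and the part of these marker differences in the results below was not tested.

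AKT is a kinase downstream of PI3K that promotes growth and metabolism and holds FOXO transcription factors outside the nucleus. EZH2 is the catalytic subunit of Polycomb repressive complex 2, which methylates histone H3 on lysine 27 and thereby keeps genes silent, and the mark is lost only slowly once the enzyme is inhibited. For a gene that both agents move in opposite directions, neither direction alone gives that of the combination.

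By the same thresholds, 778 of the 10143 genes were higher with both inhibitors and 969 were lower with both, beside the 11 and 21 described here. Both ratios are taken to the same 3 DMSO libraries, which by itself makes them move together, so these numbers are given as a description only. Over all 10143 genes the median ratio to DMSO was 0.971 with AKTi, 0.927 with EZH2i and 0.894 in the combination. In the plot of single-agent ratios the 32 genes occupy the corners that the rule defines.

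**Figure D1:**
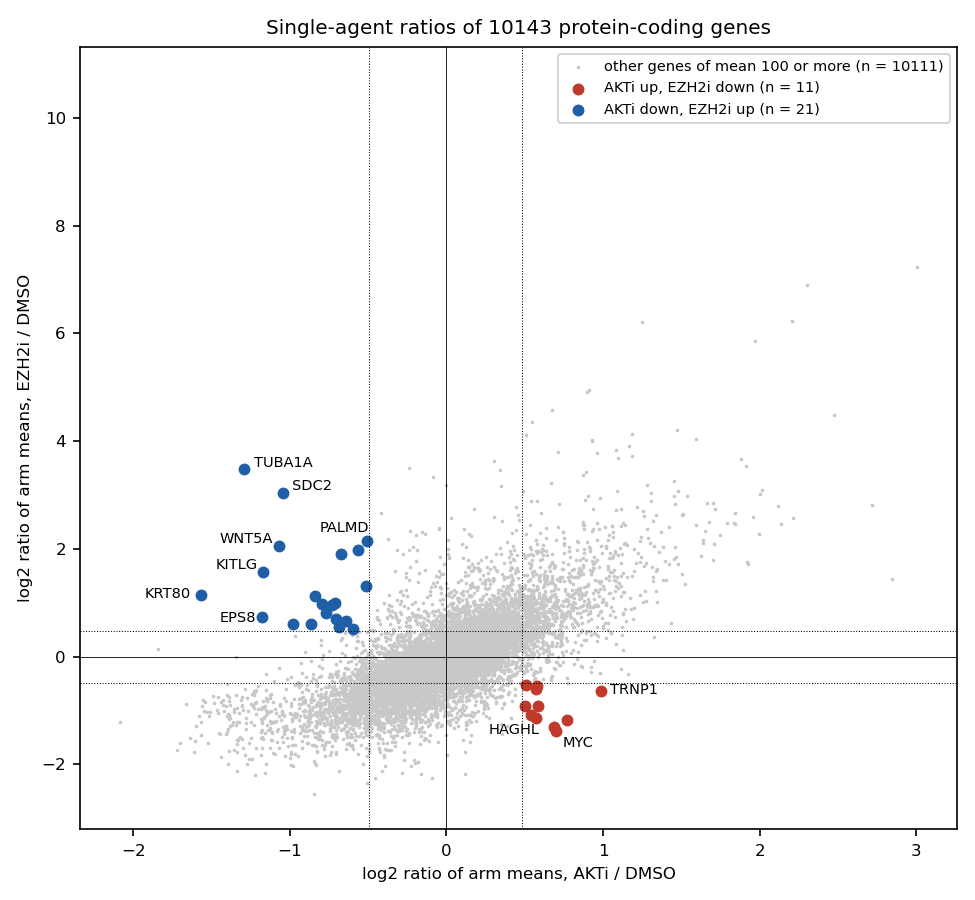
Each point is 1 of 10143 protein-coding genes, with the log2 ratio of arm means to DMSO for AKTi on the x axis and for EZH2i on the y axis; dotted lines are the thresholds at ratios of 1.4 and 0.71. The 11 red genes (AKTi up, EZH2i down) and the 21 blue genes (AKTi down, EZH2i up) lie in the corners set by the rule, and the other 10111 genes are grey; both axes share the DMSO libraries.

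Both single-agent contrasts chose the genes, so their values are description and no test is drawn from them. In the edgeR quasi-likelihood fit over 16646 genes, 20.6% of genes were called higher and 21.9% lower with AKTi, and 32.6% were called higher and 31.5% lower with EZH2i. Of the 32 genes, 31 were called in each contrast and NXF2 in neither, a count that the rule largely fixes. The genes just inside the rule were NT5M, with ratios of 1.42 for AKTi and 0.533 for EZH2i, and ARSG, with 1.42 and 0.694, in the one class, and PALMD, with 0.704 and 4.45, and TENT5C, with 0.700 and 2.49, in the other. Just outside stood PTGFR, with ratios of 1.72 and 0.715, LENG9, with 1.39 and 0.715, KATNAL1, with 0.716 and 1.41, and C4orf33, with 0.702 and 1.38.

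Promoter sequences are shown for 4 genes that held a searched motif and were called in the combination, so that the letters can be set beside the levels. The 250 bases before the RefSeq transcription start (GRCh38.p14, gene strand, 5′ to 3′) could be taken for 22 of the 32 genes. CAGCTG, an E-box recognized by TFAP4 among other basic helix-loop-helix factors, was searched on both strands and is in capitals in the first 3 sequences, and TATAAA, the TATA box, is in capitals in the fourth.
CDKN1A (chr6:36678464-36678713, plus strand): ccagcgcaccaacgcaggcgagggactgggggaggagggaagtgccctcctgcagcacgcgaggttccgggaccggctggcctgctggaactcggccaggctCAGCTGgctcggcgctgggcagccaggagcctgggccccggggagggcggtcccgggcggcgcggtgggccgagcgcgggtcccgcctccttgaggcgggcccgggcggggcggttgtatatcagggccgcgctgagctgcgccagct
RGS2 (chr1:192808789-192809038, plus strand): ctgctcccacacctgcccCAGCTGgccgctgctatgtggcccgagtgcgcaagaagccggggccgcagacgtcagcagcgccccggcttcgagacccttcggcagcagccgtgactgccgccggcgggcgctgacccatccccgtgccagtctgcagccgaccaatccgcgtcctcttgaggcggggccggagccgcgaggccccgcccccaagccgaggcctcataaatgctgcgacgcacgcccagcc
AGR2 (chr7:16805000-16805249, minus strand): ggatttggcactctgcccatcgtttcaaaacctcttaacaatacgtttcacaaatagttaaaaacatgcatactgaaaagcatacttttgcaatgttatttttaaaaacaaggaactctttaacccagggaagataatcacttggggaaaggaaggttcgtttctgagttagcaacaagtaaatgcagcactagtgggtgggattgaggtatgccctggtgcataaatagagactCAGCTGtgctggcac
KITLG (chr12:88580472-88580721, minus strand): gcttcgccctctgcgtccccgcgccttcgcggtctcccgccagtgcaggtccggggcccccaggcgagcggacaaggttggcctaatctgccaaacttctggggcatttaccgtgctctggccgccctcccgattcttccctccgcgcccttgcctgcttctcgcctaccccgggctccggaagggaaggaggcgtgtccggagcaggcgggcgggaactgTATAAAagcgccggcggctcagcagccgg

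The CAGCTG match starts 148 bases before the start of CDKN1A, 232 before RGS2 and 15 before AGR2. It was also present 58 bases before ARSG and 134 bases before the second of 2 starts of WNT5A. In all it was found in 1 of 7 genes of the AKTi-up class and in 4 of 15 genes of the EZH2i-up class, as compared with 13.98% of 35114 promoters of the same length. The percentage counts promoters while the class figures count genes, and the 15 EZH2i-up genes had 18 promoters. CACGTG, the E-box of MYC, was found only in DST among these genes, 188 bases before 1 of its 3 starts, and in 6.35% of all promoters. The TATAAA match of KITLG starts 29 bases before the RefSeq start, and TATAAA is in 10.7% of all promoters. Neither the FOXO motif GTAAACA (2.98% of all promoters) nor the AP-1 motif TGACTCA (4.2%) occurred in these windows. For CDKN1A, AGR2 and KITLG of the printed genes, the RefSeq start lies inside the gene span of the deposited annotation, which begins farther upstream. The same holds for some genes not printed, among them COQ8A, WNT5A and EGLN3. The SIPA1L2 window (chr1:232630134-232630383) lies away from the deposited span, which ends at 232561558. A match to letters is a description and not a bound site.

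Which agent prevailed was asked by testing the combination against DMSO. The ratios of the rule did not use the combination libraries, although the minimum mean of 100 did and the DMSO libraries were shared with the rule. A gene low in DMSO and with AKTi could reach that mean through the arms where it was high. SDC2, for example, had means of 72.5 in DMSO, 35.2 with AKTi, 598 with EZH2i and 196 in the combination. The number of EZH2i-up genes called higher therefore depends in part on this filter and is a description. Over all 16646 genes, 38% were called higher and 35.2% lower in the combination. Of the 11 AKTi-up, EZH2i-down genes, 7 were called lower, which is the direction of EZH2i, none was called higher, and 4 were not called. Of the 21 AKTi-down, EZH2i-up genes, 13 were called higher, again the direction of EZH2i, none was called lower, and 8 were not called. At an unadjusted p under 0.05 the count on the AKTi side was also 0, and DESeq2 gave 0 as well. The shares of 7 in 11 and 13 in 21 exceed the 35.2% and 38% of all genes, and that excess was not tested. It cannot be read as a result, because the rule chose the 32 genes for a change with EZH2i and all genes were not so chosen. Counting calls in either direction, 20 of the 32 genes were called, a smaller share than the 12186 of all 16646 genes. Leaving out each of the 12 libraries in turn gave 7 to 8 and 11 to 13 genes on the EZH2i side. On the AKTi side it gave 1 gene in 7 of the 12 cases: CYP2J2 without DMSO B, AKTi A, AKTi B, AKTi C or EZH2i A, LPAR3 without combination C and NXF2 without combination A. Scaling by total count or by upper quartile moved the median log2 fold change of all genes from 0.06 to 0.26 and 0.25, and then 2 genes, LPAR3 and RAMP1, were called on the AKTi side.

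By level, the combination lay between both single agents in 26 genes, beyond EZH2i in 6 and beyond AKTi in none. The position of the combination was expressed on the log2 scale as 0 at the EZH2i level and 1 at the AKTi level. The median position was 0.37 in the AKTi-up class (0.34 to 0.46 over the 3 combination libraries) and 0.40 in the EZH2i-up class (0.38 to 0.40). It was nearer to EZH2i in 22 genes and nearer to AKTi in 10. EZH2i also had the larger single-agent change in 23 of the 32 genes, and the combination stood on the EZH2i side of DMSO in 23. These sets of genes differ. TRNP1, ADGRG6, SIPA1L2 and DST had the larger AKTi change and a combination on the EZH2i side. LPAR3, RAMP1, TMSB15A and NAT1 had the larger EZH2i change and a combination on the AKTi side. When the genes were chosen again without DMSO A, AKTi A or AKTi C, the median of the EZH2i-up class was 0.24, 0.25 and 0.24, still on the EZH2i side of the midpoint, and without DMSO B the median of the AKTi-up class was 0.50. With a ratio threshold of 1.3, the AKTi-up class had 35 genes and a median position of 0.14. All these positions use the selected arms and carry no test.

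**Figure D2:**
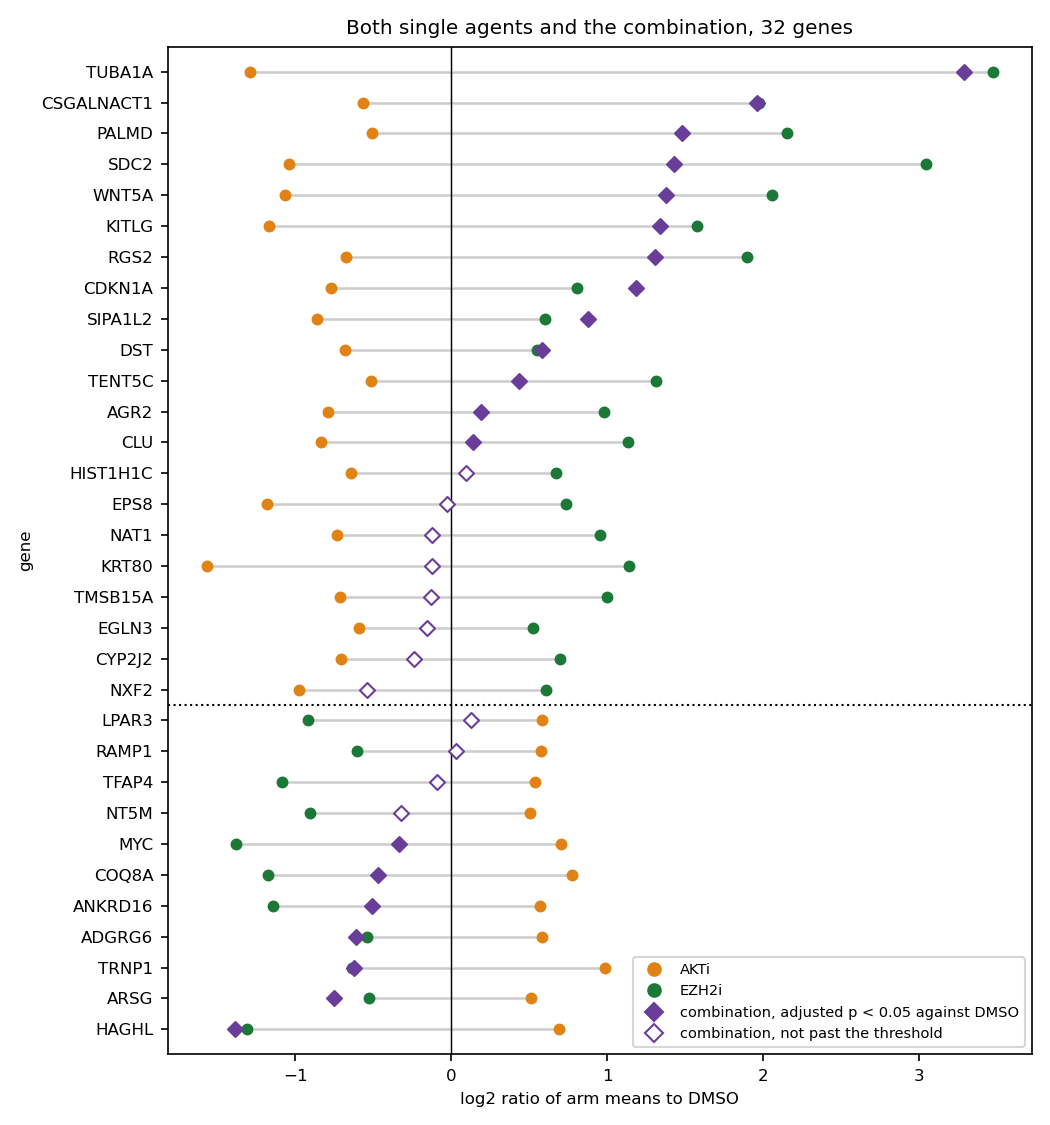
For each of the 32 genes, the x axis gives the log2 ratio of arm means to DMSO with AKTi (orange circles), EZH2i (green circles) and the combination (diamonds); the 21 AKTi-down genes are above the dotted line and the 11 AKTi-up genes below it. Filled diamonds mark the 20 genes with adjusted p under 0.05 against DMSO in the edgeR fit, all on the EZH2i side of 0, and open diamonds the 12 others.

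Regulators of transcription in the AKTi-up class were MYC, TFAP4 and TRNP1. MYC (chr8:127735434-127741434, plus strand), a basic helix-loop-helix factor that drives growth and metabolism, had 3893, 3992 and 4186 normalized counts in the DMSO libraries, 6228, 6654 and 6766 with AKTi, 1525, 1456 and 1654 with EZH2i and 3346, 3132 and 3078 in the combination. No arm overlapped another, and the combination stood at the midpoint of both agents on the log2 scale (position 0.50). The EZH2i ratio was the farther from 1, and in the combination MYC was below DMSO, with a log2 fold change of -0.32 ± 0.06 (SE; adjusted p = 3.72e-06), a call that held under all 19 alternatives. TFAP4 (chr16:4257186-4273075, minus strand), a factor of the same helix-loop-helix family that MYC is known to induce and that represses CDKN1A, had 501, 572 and 561 in DMSO, 756, 796 and 825 with AKTi and 265, 225 and 280.0 with EZH2i. The combination libraries, at 509, 483 and 542, overlapped DMSO and no single agent. The log2 fold change was -0.07 ± 0.09 (95% interval -0.25 to 0.10, adjusted p = 0.456), and it was above 0 when libraries were scaled by total count (0.12) or upper quartile (0.11). TRNP1, a nuclear protein of neural progenitors, had 164, 134 and 156 in DMSO, 293, 307 and 298 with AKTi and 120.2, 81.5 and 90.1 with EZH2i. It had the largest AKTi ratio of its class, 1.98, yet its combination libraries, at 96.0, 93.5 and 105, were at the EZH2i level and below every DMSO library (log2 fold change -0.61 ± 0.15, adjusted p = 4.10e-04).

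The receptor components ADGRG6, LPAR3 and RAMP1 of the same class parted from each other in the combination. ADGRG6 (chr6:142301854-142446266, plus strand), an adhesion G protein-coupled receptor, had 2142, 2175 and 2399 in DMSO, 3373, 3369 and 3299 with AKTi, 1512, 1585 and 1515 with EZH2i and 1515, 1458 and 1433 in the combination. The combination overlapped EZH2i and was lower than all DMSO libraries (log2 fold change -0.59 ± 0.06, adjusted p = 8.93e-12), although its AKTi ratio was 1.49. LPAR3 (chr1:84811602-84893213, minus strand), a receptor for lysophosphatidic acid, had 766, 764 and 693 in DMSO, 1085, 1097 and 1150.5 with AKTi, 335, 412 and 429 with EZH2i and 880.3, 813 and 731 in the combination. Its combination libraries overlapped DMSO and were well above EZH2i, and its position of 0.69 was the nearest to AKTi in the class. The log2 fold change of 0.15 ± 0.08 did not pass (adjusted p = 0.0938), but it passed on the AKTi side without combination C (0.21, adjusted p = 0.0304), with at least 10 counts required in every library (0.22) and with either other scaling (0.35 and 0.33). RAMP1, which pairs with the calcitonin receptor-like receptor to bind CGRP, was at 1233 ± 121 (SD, n = 3) in DMSO, 1836 ± 98.8 with AKTi, 811 ± 152 with EZH2i and 1258 ± 30.7 in the combination. Its log2 fold change of 0.05 ± 0.08 (adjusted p = 0.579) had a 95% interval of -0.12 to 0.22 and passed on the AKTi side only with the other scalings (0.25 by total count).

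Enzymes and genes of less defined role completed the class. COQ8A, a mitochondrial protein needed for coenzyme Q synthesis, had 1867, 1754 and 2142 in DMSO, 3204, 3264 and 3372 with AKTi, 892, 875 and 786 with EZH2i and 1363, 1461 and 1338 in the combination, with no arm overlapping another (log2 fold change -0.45 ± 0.06, adjusted p = 9.67e-08). ANKRD16, an ankyrin repeat protein, followed the same order, at 296 ± 26.1 in DMSO and 208 ± 24.9 in the combination (SD, n = 3; -0.48 ± 0.11, adjusted p = 3.27e-04). HAGHL, named for its likeness to a glyoxalase, was at 531, 517 and 506 in DMSO and 785, 845 and 875 with AKTi. It stood at 249, 149.8 and 228 with EZH2i and at 189.5, 223 and 180.2 in the combination, the lowest ratio of the class (-1.37 ± 0.12 on the log2 scale, adjusted p = 4.30e-13). ARSG, a lysosomal sulfatase, was at 208 ± 10.8 in DMSO, 297 ± 26.5 with AKTi, 144 ± 10.3 with EZH2i and 124 ± 17.7 in the combination (-0.74 ± 0.13, adjusted p = 6.08e-06). NT5M, a mitochondrial nucleotidase, was at 153, 129 and 138 in DMSO and 92.7, 119 and 124 in the combination, below DMSO in every library, but its log2 fold change of -0.31 ± 0.16 did not pass (adjusted p = 0.0756). It passed on the EZH2i side without DMSO B (-0.40), AKTi A (-0.36), AKTi B (-0.35), EZH2i A (-0.36) or combination C (-0.39). HAGHL (chr16:726936-735525) overlaps CIAO3 (chr16:729753-741329), whose ratios were 0.911 with AKTi, 0.810 with EZH2i and 0.797 in the combination. Only at its edge does it overlap CCDC78 (chr16:722582-726954), with 1.18, 0.545 and 0.387. ARSG overlaps SLC16A6, with 0.511, 0.32 and 0.286, and WIPI1, with 0.944, 1.17 and 1.14. Since the strand setting of the counting is not given, reads of such pairs may not be told apart.

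**Figure D3:**
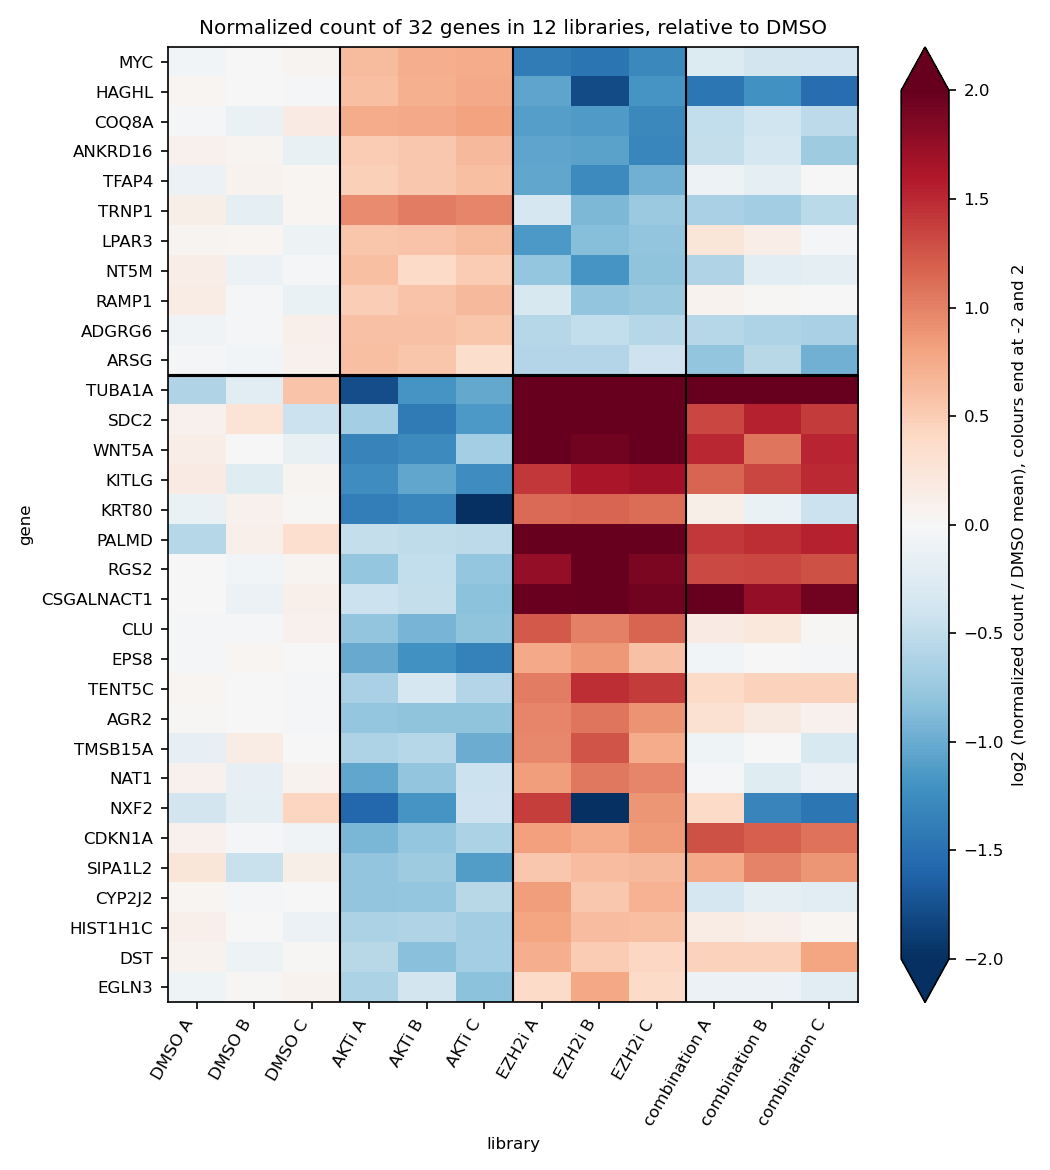
Rows are the 32 genes and columns the 12 libraries, and colour gives the log2 ratio of the normalized count to the DMSO mean of that gene, ending at -2 and 2. The 11 AKTi-up genes (top) are red with AKTi and blue with EZH2i, the 21 AKTi-down genes the reverse except NXF2 in EZH2i B, and the combination columns take the EZH2i colour in the genes called.

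Among the AKTi-down, EZH2i-up genes, KITLG, WNT5A, CLU and AGR2 encode proteins that are secreted or act in the secretory pathway, and all were called above DMSO in the combination. KITLG (chr12:88492793-88580851, minus strand), the ligand of the receptor tyrosine kinase KIT, whose promoter with a TATAAA match is printed above, had 176, 133 and 163 in DMSO, 66.5, 76.3 and 66.6 with AKTi, 417, 486 and 502 with EZH2i and 354, 396 and 444 in the combination. The combination overlapped EZH2i and was above all DMSO libraries (log2 fold change 1.35 ± 0.12, adjusted p = 1.14e-12), a ratio of 2.53 where the product of both single-agent ratios was 1.32. WNT5A, a ligand of noncanonical Wnt signalling, had 99.5, 90.8 and 82.2 in DMSO, 36.2, 37.6 and 56.4 with AKTi, 361, 346 and 429.7 with EZH2i and 258, 192 and 261 in the combination. It too rose above DMSO (1.41 ± 0.15, adjusted p = 1.68e-10), without reaching the EZH2i libraries. CLU, a secreted chaperone, was at 1337, 1336 and 1459 in DMSO, 794, 726 and 789 with AKTi, 3207, 2769 and 3101 with EZH2i and 1547, 1598 and 1397 in the combination. Its combination and DMSO libraries overlapped, and although its log2 fold change of 0.16 ± 0.07 passed (adjusted p = 0.0320), the call was lost in 12 of 19 alternatives, among them DESeq2 and the removal of DMSO A or B, any AKTi library, EZH2i A or C, or combination A or B (log2 0.09 to 0.20 over all libraries left out). AGR2, a disulfide isomerase of the secretory pathway, was at 1116, 1114 and 1078 in DMSO, 646, 629.6 and 632 with AKTi, 2159, 2304 and 2063 with EZH2i and 1363, 1242 and 1170.3 in the combination. Its log2 fold change of 0.21 ± 0.06 (adjusted p = 0.00355) was 0.15 without combination A, which did not pass (adjusted p = 0.0593).

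SDC2 and CSGALNACT1 act in proteoglycan biology, and both were called above DMSO. SDC2, a heparan sulfate proteoglycan, had 76.6, 87.2 and 53.8 in DMSO, 45.5, 27.3 and 32.7 with AKTi, 617, 577 and 600.3 with EZH2i and 184, 211 and 192 in the combination. No arm overlapped another; the combination was above DMSO (1.48 ± 0.15, adjusted p = 5.53e-11) yet far below EZH2i, at a ratio of 2.70 as compared with 8.25. CSGALNACT1, an enzyme that starts chondroitin sulfate chains, had 115.95, 106 and 123 in DMSO, 85.1, 83.1 and 65.5 with AKTi, 454, 463 and 441 with EZH2i and 517, 391 and 437 in the combination. Here the combination overlapped EZH2i (position 0.01; 1.97 ± 0.12 against DMSO, adjusted p = 3.44e-17).

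TUBA1A, PALMD, DST and SIPA1L2 were called above DMSO in the combination. TUBA1A (chr12:49184796-49189324, minus strand), an alpha-tubulin, had the widest gap of all 32 genes, with 78.8, 102 and 177 in DMSO, 35.0, 52.4 and 58.7 with AKTi, 1407, 1228 and 1339 with EZH2i and 1163, 1178 and 1149 in the combination. The combination was near EZH2i and was higher than DMSO by 3.25 ± 0.13 (log2, adjusted p = 1.31e-22). The near-identical paralogs TUBA1B and TUBA1C fell with AKTi much as TUBA1A did (ratio 0.409), but fell with EZH2i and in the combination too. TUBA1B had ratios of 0.387 with AKTi, 0.415 with EZH2i and 0.0676 in the combination, and TUBA1C 0.404, 0.536 and 0.152. Both were far more abundant, with DMSO means of 11736 and 6334 as compared with 119 for TUBA1A. TUBA1C also overlaps TUBA1A in position, so the assignment of reads among the 3 genes is uncertain. PALMD, a palmitoylated cytosolic protein tied to cell shape, had 76.6, 122 and 143 in DMSO, 81.6, 79.7 and 79.0 with AKTi, 485, 545 and 492 with EZH2i and 304, 318 and 332 in the combination (1.48 ± 0.14, adjusted p = 3.18e-12); its AKTi and DMSO libraries overlapped. DST, a linker of filaments and microtubules, was at 301, 268 and 292 in DMSO and 196, 161 and 179.5 with AKTi. Its EZH2i libraries, at 473, 406 and 381, and combination libraries, at 395, 396 and 497, overlapped (0.60 ± 0.11, adjusted p = 8.01e-06). SIPA1L2, of a family that inactivates Rap GTPases, was at 103 ± 24.3 in DMSO, 56.5 ± 8.02 with AKTi, 156 ± 6.00 with EZH2i and 189 ± 15.7 in the combination, which lay above every EZH2i library (0.89 ± 0.16, adjusted p = 4.39e-06).

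KRT80, a keratin of differentiated epithelia, had the lowest AKTi ratio of all (0.338) and was at 137, 159 and 153 in DMSO, 57.1, 60.3 and 33.9 with AKTi, 327, 336 and 325 with EZH2i and 162, 137 and 111 in the combination. EPS8, an actin regulator downstream of growth factor receptors, was at 203, 214 and 206 in DMSO, 104, 89.9 and 81.3 with AKTi, 349.8, 378 and 312 with EZH2i and 199, 206 and 205 in the combination. In both genes the combination libraries overlapped DMSO and neither single agent. The log2 fold changes were -0.10 ± 0.15 (95% interval -0.41 to 0.21) for KRT80 and -0.01 ± 0.12 (-0.25 to 0.24) for EPS8, with adjusted p of 0.560 and 0.963, and with the other scalings both signs turned. TMSB15A, a thymosin that binds actin monomers, likewise was at 139 ± 14.7 in DMSO and 127 ± 13.1 in the combination (-0.11 ± 0.15, adjusted p = 0.535), between 84.8 ± 12.9 with AKTi and 278 ± 49.7 with EZH2i.

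Among signalling and growth arrest genes, CDKN1A and RGS2 were both called. CDKN1A (chr6:36676460-36687339, plus strand), which encodes the cyclin-dependent kinase inhibitor p21, had 1329, 1223 and 1193 in DMSO, 661, 729 and 805 with AKTi and 2211, 2086 and 2246 with EZH2i. Its combination libraries, at 3013, 2868 and 2637, were above every EZH2i library, and the gap to DMSO was 1.21 ± 0.07 (log2, adjusted p = 9.64e-19). Both single-agent ratios, 0.586 and 1.75, multiply to 1.02, whereas the combination ratio was 2.27. A gene that was below DMSO with AKTi alone was thus highest where AKTi was added to EZH2i. RGS2, which shortens signalling by Gq-coupled receptors, was at 119, 115 and 123 in DMSO, 70.0, 84.2 and 70.0 with AKTi, 402, 492 and 439 with EZH2i and 297, 302 and 287 in the combination (1.33 ± 0.12, adjusted p = 2.14e-12), and its ratio of 2.48 was close to the product of 2.34. RGS2 and AGR2 carry the same CAGCTG letters as CDKN1A in the sequences printed above. Their combination levels lay between the single agents, at positions 0.23 and 0.44, as compared with -0.24 for CDKN1A. Whether the motif has a part in any of these levels was not tested.

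**Figure D4:**
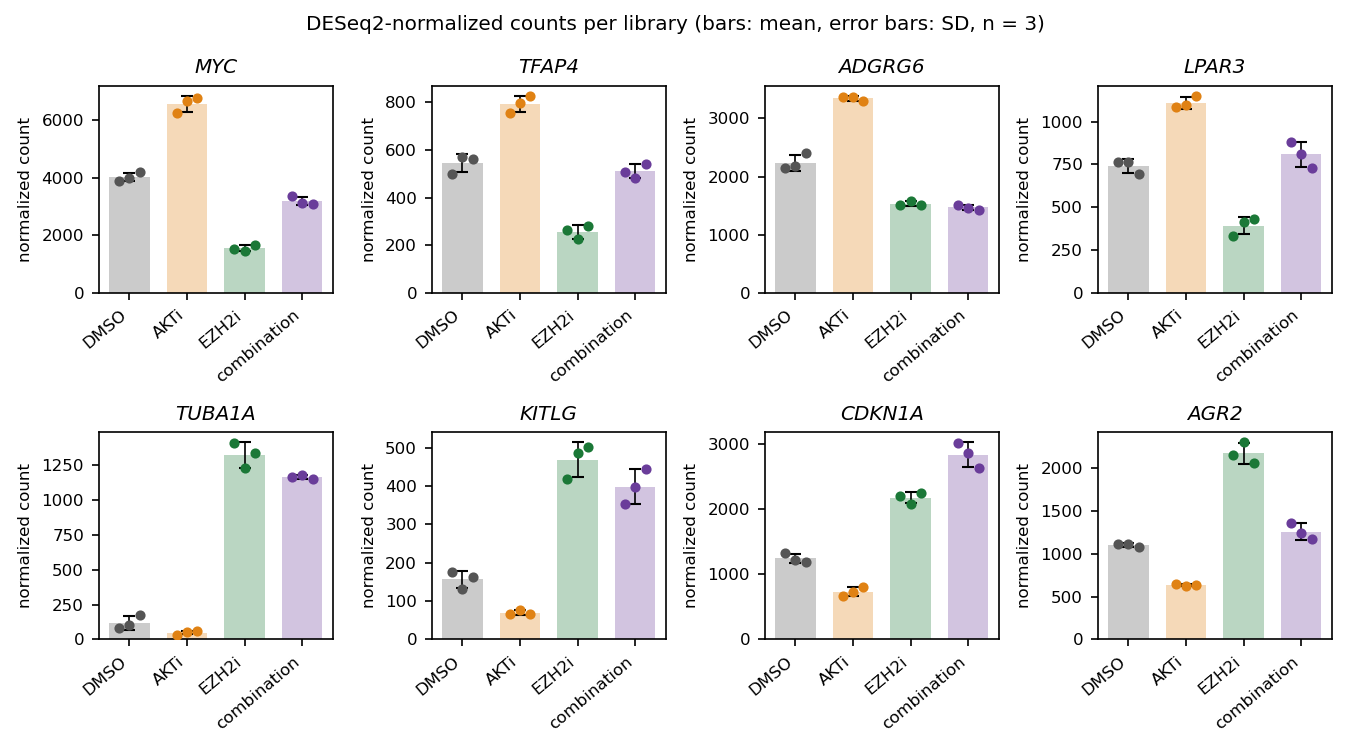
Normalized counts of 8 genes in each library (points), with the mean (bars, from 0) and SD (error bars, n = 3) per arm; each panel has its own y axis. In the combination MYC lies between both agents, TFAP4 and LPAR3 overlap DMSO, ADGRG6, TUBA1A and KITLG are near EZH2i, CDKN1A exceeds EZH2i, and AGR2 is slightly above DMSO.

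Of the remaining enzymes, TENT5C was called and NAT1, EGLN3 and CYP2J2 were not. TENT5C, a noncanonical poly(A) polymerase, was at 107, 105 and 101 in DMSO, 66.5, 83.1 and 70.0 with AKTi, 213, 290.1 and 277 with EZH2i and 136, 143 and 143 in the combination (0.45 ± 0.15, adjusted p = 0.00665). NAT1, an arylamine acetyltransferase, was at 269 ± 24.9 (SD, n = 3) in DMSO and 247 ± 19.0 in the combination, between 162 ± 35.0 with AKTi and 521 ± 39.1 with EZH2i (-0.11 ± 0.12, adjusted p = 0.422). EGLN3, an oxygen-sensing prolyl hydroxylase and a HIF-1 target, was at 164, 177 and 183 in DMSO and 162, 160.2 and 149 in the combination, with 115.6 ± 18.3 for AKTi and 251 ± 41.4 for EZH2i (-0.13 ± 0.14, adjusted p = 0.387). It overlaps SPTSSA, which had ratios of 0.723 with AKTi, 0.542 with EZH2i and 0.438 in the combination. CYP2J2, an epoxygenase of arachidonic acid, was at 289.9, 274 and 281 in DMSO, 162, 164 and 192 with AKTi, 501, 409.5 and 456 with EZH2i and 222, 249 and 244 in the combination. Every combination library of CYP2J2 was below every DMSO library, the direction of AKTi, but the log2 fold change of -0.22 ± 0.11 did not pass (adjusted p = 0.0675). It passed on the AKTi side without DMSO B (-0.28), without AKTi A, B or C (-0.28, -0.26 and -0.26) and without EZH2i A (-0.28).

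HIST1H1C, a linker histone gene most of whose transcripts lack the poly(A) tail that the libraries select, was at 4173, 3894 and 3597 in DMSO, 2500.4, 2572 and 2412 with AKTi, 6693, 5941 and 5924 with EZH2i and 4312, 4170.4 and 3982 in the combination. Its log2 fold change of 0.12 ± 0.06 (adjusted p = 0.0763) passed on the EZH2i side without DMSO A (0.16), with either other scaling (0.31 and 0.30) and with at least 10 counts required in every library (0.18). NXF2 (chrX:102247161-102326719, plus strand), an mRNA export factor normally found in testis, was the least reproducible of the 32 genes, at 229.7, 263 and 401 in DMSO, 100.3, 131 and 222 with AKTi, 779.7, 34.1 and 548 with EZH2i and 386, 119 and 109 in the combination. EZH2i B was lower than any other library, and all arms overlapped with the combination. Its log2 fold change of -0.51 ± 0.44 (adjusted p = 0.292) became -1.38 and passed on the AKTi side without combination A. Without DMSO A, EZH2i A or EZH2i C, NXF2, like some other genes when single libraries were left out, no longer met the rule. Its near-identical copy NXF2B had at most 1 count in any library, so reads of both may be counted on NXF2.

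The combination was next compared with the sum of both single-agent log2 ratios, the level it would have if each agent multiplied expression by the same factor with or without the other. The sum pointed toward EZH2i in 23 genes and toward AKTi in 9. Of the 20 genes called on the EZH2i side, 16 had a sum on that side, while TRNP1, ADGRG6, SIPA1L2 and DST had a sum on the AKTi side. The combination differed from the sum toward EZH2i in 17 of the 32 genes, and the median of the combination minus the sum was 0.06 in the AKTi-up class and 0.07 in the EZH2i-up class. Excess over the sum was largest for CDKN1A (1.15 on the log2 scale), SIPA1L2 (1.14), TUBA1A (1.10), KITLG (0.94) and DST (0.71). The combination fell short of it most for TRNP1 (-0.97), HAGHL (-0.77), ARSG (-0.74) and ADGRG6 (-0.65), all of the class that EZH2i lowered. In these 9 genes the difference was toward EZH2i. The opposite held for SDC2 (-0.57) and TMSB15A (-0.41) in one class and for LPAR3 (0.46), TFAP4 (0.45) and MYC (0.34) in the other, where the combination was farther toward AKTi than the sum. These sums use the arms that chose the genes and were not tested.

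**Figure D5:**
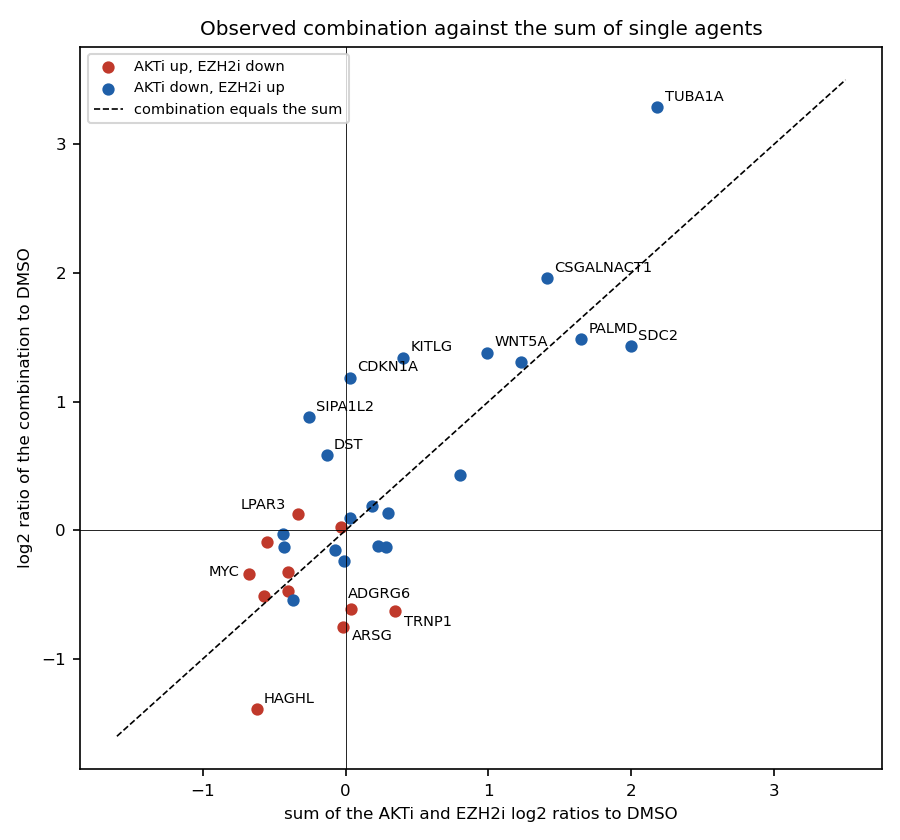
The x axis gives the sum of the AKTi and EZH2i log2 ratios to DMSO and the y axis the log2 ratio of the combination, for 11 AKTi-up genes (red) and 21 AKTi-down genes (blue); the dashed line marks equality. CDKN1A, SIPA1L2, TUBA1A and KITLG lie above the line by 0.94 to 1.15, and TRNP1, HAGHL, ARSG and ADGRG6 lie below it by 0.65 to 0.97.

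Genes of the pathways that each agent is known for were counted in 11 lists, which were too short for the number of members in them to be read as a result. Those with none of the 32 genes were androgen-responsive, FOXO-responsive, sterol and fatty acid synthesis, ATF4-responsive, ERK feedback, receptor tyrosine kinase, cell cycle, interferon-stimulated and neuroendocrine genes. Over all 16646 genes, 20.6% were called higher and 21.9% lower with AKTi, and 32.6% and 31.5% with EZH2i. In the combination the shares were 38% and 35.2%. Counts near these shares, such as those of ERK feedback genes in the combination, are not a result about the list, and no list was tested. In the cell cycle list, all but 1 of 42 genes were called lower with AKTi, and all 42 with EZH2i and in the combination, while 22 of 30 FOXO-responsive genes were called higher with each agent and 28 in the combination. CDKN1A was the one p53-responsive gene of the 32. Of 25 such genes, 9 were called higher and 10 lower with AKTi, 9 and 10 with EZH2i, and 13 and 10 in the combination (median log2 fold change 0.25, as compared with 0.06 over all genes). EGLN3 was the one HIF-1 target outside glycolysis, of 28 tested, among which 6 were called higher and 15 lower with AKTi, 10 and 11 with EZH2i, and 14 and 10 in the combination (median 0.03). In the combination, 21 of 36 androgen-responsive genes were called higher and 10 lower, 2 and 31 of 34 for sterol and fatty acid synthesis, 18 and 8 of 30 ATF4-responsive genes, 6 and 5 of 14 ERK feedback genes, 15 and 3 of 27 receptor tyrosine kinases, 16 and 5 of 28 interferon-stimulated genes and 7 and 3 of 14 neuroendocrine and neuronal genes. The lists were written from general knowledge, but with earlier results of these data known.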

How the data were processed

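PolyA RNA-seq was available for 12 libraries of C4.2B cells, 3 in each of 4 arms. The submitters' processing notes name STAR, HTSeq, DESeq2 and the build hg38; versions, gene annotation and strand setting are not given in the sources used here. The deposited counts are whole numbers per gene for 58735 genes, and the second deposited table holds, as signal, what DESeq2 makes of these counts after division by a size factor for each library. Gene coordinates, strands and lengths come from the deposited count table.

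Genes were chosen on the normalized counts, among the 10143 names found once, annotated as protein-coding and with a mean over 12 libraries of at least 100: AKTi/DMSO at least 1.4 with EZH2i/DMSO at most 0.71, or the reverse. The members and the gene lists were chosen with earlier results of these data known. The combination was tested against DMSO on the counts with the edgeR 4.0.16 quasi-likelihood test in R 4.3.3 (filterByExpr with minimum count 10 and minimum total 15, TMM scaling, 1 mean per arm over all 12 libraries, Benjamini-Hochberg over 16646 genes, threshold 0.05). All 32 genes passed the filter. An agent was said to prevail where the combination differed from DMSO at adjusted p under 0.05 in the direction of that agent alone; other genes were counted as between. Standard errors are on the log2 scale. All 32 genes are named: those with the widest gap between agents, the extremes in the combination and list members by rule, and the rest to account for every gene. Totals were 14133755 to 22276417 counts per library. For genes with levels under about 100 counting error is a sizeable part of the spread between libraries. Alternatives were DESeq2 1.42.0, other scalings, filters and thresholds, a block for the library letter, and leaving out single libraries. Promoters were taken from a RefSeq table (GRCh38.p14) in which 22 of the 32 genes matched; a check of base composition over the 32 was void at that coverage.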

Additional observations from a re-analysis of the deposited data

How the results depend on the processing

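Leaving out single libraries and choosing the genes again gave 10 to 15 AKTi-up and 20 to 28 EZH2i-up genes, with median positions of the combination (0 at EZH2i, 1 at AKTi) of 0.332 to 0.501 and 0.242 to 0.419; for the fixed genes it gave 0 to 1 on the AKTi side in each class, 7 to 8 and 11 to 13 on the EZH2i side, and 2 to 4 and 8 to 9 in between. The AKTi-side genes were LPAR3 without combination C, NXF2 without combination A, and CYP2J2 in the other cases. Among these the median position passed the midpoint once, in the AKTi-up class without DMSO B (0.501). Genes lost from the rule at least once were ARSG, NT5M, ADGRG6, TFAP4, PALMD, TENT5C, SIPA1L2, CSGALNACT1, DST, EGLN3 and NXF2. ARSG was lost without DMSO B, DMSO C, AKTi A or AKTi B, PALMD without DMSO B or C, and TENT5C without AKTi A or C.

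Other thresholds moved the numbers of genes most. Ratios of 1.3 gave 35 and 39 genes (median position 0.138 in the AKTi-up class), ratios of 1.5 gave 4 AKTi-up genes, all 4 of them on the EZH2i side and 0 in between (median positions 0.184 and 0.419), and 2-fold ratios left 0 AKTi-up genes, hence 0 on any side and no position, and 5 EZH2i-up genes (4 on the EZH2i side, 1 in between, position 0.217). A minimum mean of 30 gave 21 and 50 genes at 0.0583 and 0.380, and one of 300 gave 7 and 6 genes at 0.501 and 0.239, with 4 and 5 on the EZH2i side and 1 EZH2i-up gene in between. Choosing by total-count scaling gave positions of 0.491 and 0.370. Called by the nearer arm with no test, 4 and 6 genes were on the AKTi side.

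In the test against DMSO, scaling by total count or by upper quartile put 2 AKTi-up genes on the AKTi side and left 2 in between, and requiring 10 counts per library throughout put 1 there. In the EZH2i-up class 1 gene (NXF2) was on the AKTi side with a filter of 1 count in total and with the 6 DMSO and combination libraries alone. Fold changes of genes not called turned sign with total-count and upper-quartile scaling for TFAP4 (0.125 and 0.112), KRT80 (0.0947 and 0.0836), EPS8 (0.190 and 0.178), TMSB15A (0.0881 and 0.0763), NAT1 (0.0899 and 0.0785) and EGLN3 (0.0623 and 0.0507), for EPS8 also with 10 counts per library throughout (0.0616), and within the ranges over libraries left out for RAMP1 (-0.0294 to 0.125), KRT80 (-0.245 to 0.0213) and EPS8 (-0.0654 to 0.00843). Where scaling moved the median of all genes the fold changes moved with it by construction; for the rest the cause was not tested.

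Library letters were checked as a pairing between DMSO and combination libraries only. Deviations of same-lettered libraries correlated at -0.026, -0.011 and -0.058. No pairing by letter was seen in these values, but they cannot exclude a shared plate or batch. With the replicate block 7 AKTi-up and 14 EZH2i-up genes were on the EZH2i side, 0 on the AKTi side and 4 and 7 in between, and the added gene was HIST1H1C (0.12, adjusted p = 0.0471).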
